A study of Homo sapiens with 6 samples.

Results

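The transient receptor potential (TRP) cation channels examined here are TRPM8, TRPM2, TRPM4, TRPM7, TRPV1, TRPV2, TRPV6, TRPC1, MCOLN1 and PKD2. They were followed on expression arrays in LNCaP, an established cell line grown from a human prostate cancer metastasis that responds to androgen. Every probe set whose annotation names exactly 1 of these 10 genes was taken, which gave 17 probe sets of 8 genes among 54675 on the array. DHT arrays came from 3 samples stimulated for 48 h with 100 nM dihydrotestosterone (DHT), the androgen made from testosterone in the prostate. Control arrays came from 3 other samples. Both groups had first been kept for 3 days in phenol red-free RPMI with 10% serum that had been stripped with charcoal and dextran, which lowers its steroids. The labels do not say whether controls were given a vehicle. The labels call the samples of a group biological replicates but do not say whether they were grown on separate days, so p-values measure the spread between these samples, which may be technical. LNCaP is 1 cell line, and nothing here bears on other prostate cells.

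TRP channels are membrane proteins whose subunits assemble around a central pore for cations. TRPM8 opens on cooling and with menthol and is known in the prostate as an androgen-responsive gene. TRPM2 is gated by ADP-ribose, TRPM4 carries sodium when calcium rises in the cell, and TRPM7 joins a magnesium- and calcium-permeable pore to a kinase. TRPV1 and TRPV2 are relatives gated by heat and chemical ligands, TRPV6 is a calcium-selective uptake channel, TRPC1 takes part in calcium entry after stores empty, MCOLN1 releases calcium from lysosomes, and PKD2 is the channel partner of polycystin-1.

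The values are signals made with MAS5, which gives 1 number for the probe pairs that make up a probe set. All 6 arrays had the same mean of 100.03 after trimming 2% at both ends, so each change is measured against the array's own average. A probe set counted as above background where its mean over the 6 arrays was at least 20. Of the 17, 13 did, with at least 1 for each of the 8 genes. So did 31522 of all 54613 probe sets other than array controls, and 13883 of 19775 genes had such a probe set. The limit lay below the median signal of every array (25.7 to 30.1), so passing it does not by itself show that a gene is expressed. Changes are DHT minus control on log2(signal + 16), where dim genes show less than their true fold, and were tested with limma over all 31522 probe sets above that limit. Luminal prostate markers were present, with 7 of 7 readable genes above the limit. Their summed signal was 16089 to 16617 with DHT and 8449 to 8987 in controls, and KLK3, also an androgen-response gene here, averaged 8985 of it with DHT and 2186 in controls. SLC45A3 (1.53) was higher too, HOXB13 (-0.37) and KRT8 (-0.43) were lower, and FOXA1, FOLH1 and KRT18 did not pass (limma, over genes). Of 3 readable basal markers (KRT5, KRT14 and KRT15) 0 were above it, at a sum of 22.8 to 31.8 with DHT and 7.74 to 24.5 in controls. Of 5 stromal markers 3 were above it, with a summed signal of 204 to 267 with DHT and 292 to 299 in controls. COL1A1, with a mean of 132 with DHT and 198 in controls, passed among them as lower (-0.54, limma adjusted p = 0.0179 over genes). The mean of its probe sets did not pass (-0.39, limma adjusted p = 0.091). Of 5 blood or endothelial markers 2 were above the limit, at a sum of 105 to 113 with DHT and 98.7 to 132 in controls. For the ACTB control probe sets, signal at the 3' end over that at the 5' end was 1.77 ± 0.07 with DHT and 1.37 ± 0.05 in controls (SD, n = 3 each), without overlap between the groups, and that of GAPDH was 1.06 ± 0.05 with DHT and 0.904 ± 0.044 in controls (exact permutation p = 0.1 for both, the smallest that 3 against 3 arrays allow). The part of the stromal sum and of these ratios in the results on the channels was not tested. The androgen-response genes were higher. KLK2, a secreted protease, had a log2 fold change of 4.07 ± 0.09 (SE), TMPRSS2, a membrane protease, 3.08 ± 0.11, KLK3, prostate-specific antigen, 2.04 ± 0.09 and FKBP5, a steroid receptor cochaperone, 0.72 ± 0.12, all higher with DHT at a limma adjusted p over genes of 0.00343 or less. FKBP5 did not pass when its probe sets were averaged (0.31, limma adjusted p = 0.141) or with arrays scaled to spiked-in transcripts (0.20, adjusted p = 0.332).

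Among the channels, TRPM8 alone had a probe set past an adjusted p of 0.05. That was 1 of the 13 tested probe sets, higher with DHT, and 0 were lower. Over all probe sets tested, 11.0% passed, 5.41% as higher and 5.55% as lower, so the count is near what the array as a whole gave and is not a result about the channels as a set. The groups did not overlap for 2 of the 13, against 29.4% of all tested probe sets. The median log2 fold change of the 13 was 0.01, equal at 2 decimals to the 0.01 of all tested probe sets. At an unadjusted limma p under 0.05 there were 3, the TRPM8 probe set and 2 probe sets of TRPM7 that pointed in opposite directions. The share of all probe sets or genes under that unadjusted threshold is not given here. No count at it is therefore read as a result about a set.

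**Figure D1:**
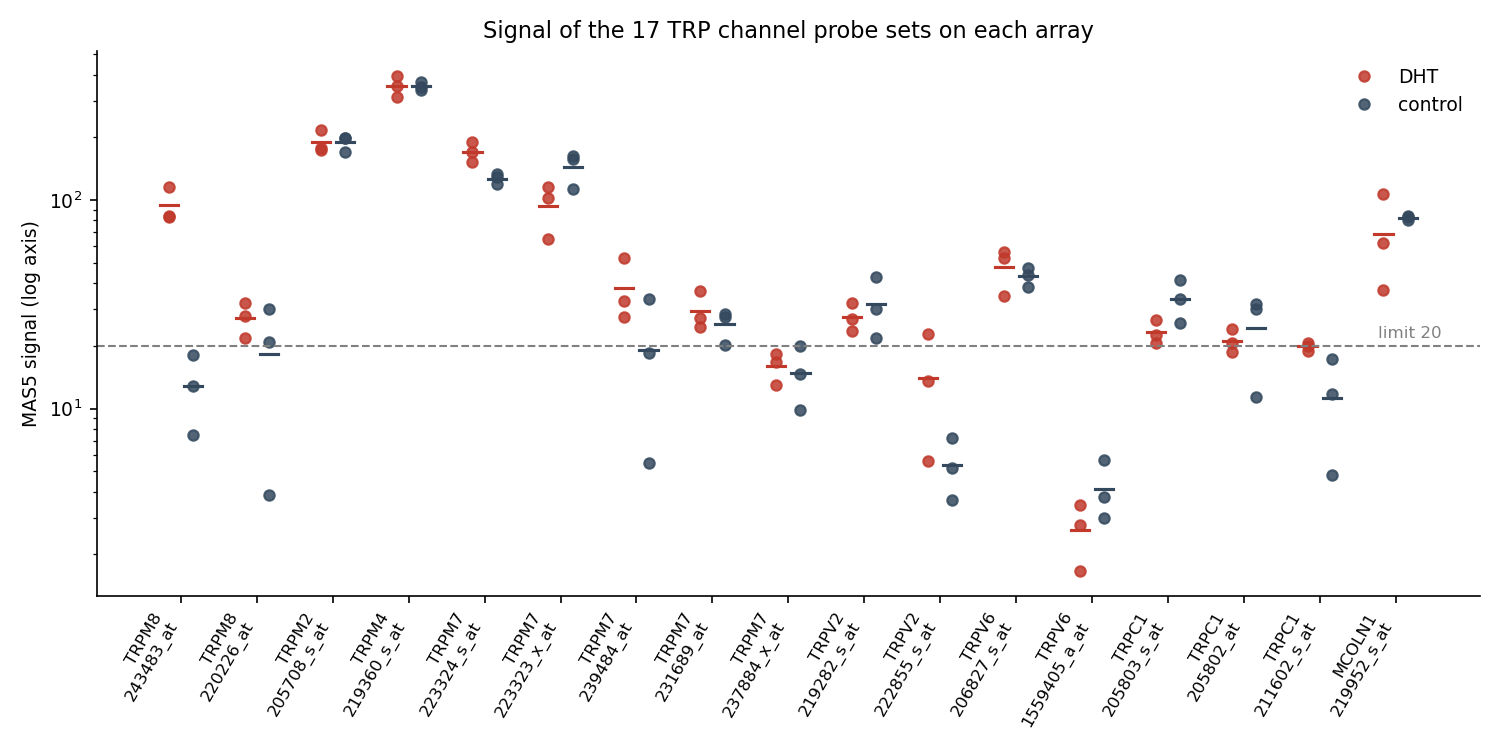
MAS5 signal (log axis) of the 17 single-gene TRP channel probe sets, with a dot for each array, a bar at each group mean, DHT left of control, and a dashed line at the limit of 20. TRPM8 243483_at is the pair of groups set farthest apart, with DHT arrays at 83.4 to 116 and control arrays at 7.50 to 18.1.

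TRPM8, the cold and menthol channel, had a signal of 116, 83.4 and 84.2 on the DHT arrays, against 18.1, 12.8 and 7.50 on the control arrays, in its brighter probe set (243483_at). The gene lies on chromosome 2 at chr2:233917373-234019522 (GRCh38.p14). All 3 DHT arrays lay above all 3 control arrays, and the lowest DHT value was 4.61 times the highest control value. The control arrays were all below the limit of 20, so the probe set passed the limit only through the DHT group and its control level is only a bound. With the control arrays set to the limit, the geometric mean of this probe set was at least 4.67-fold higher with DHT. The geometric means as measured were 93.3 with DHT and 12.02 in controls. On log2(signal + 16) the change was 1.94 ± 0.21 (SE), with a 95% interval of 1.49 to 2.40 and a limma adjusted p of 0.000196. Its size hangs on the pseudocount, at 2.85 with a pseudocount of 1 and 1.04 with one of 64, and the call held in all 17 alternatives (adjusted p = 2.78e-05 to 0.00632). In RNA of whole cultures, more cells that express a gene and more of its RNA per cell cannot be told apart.

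The other TRPM8 probe set (220226_at) was dim. It had 28.0, 32.2 and 21.8 with DHT, against 20.8, 3.87 and 30.0 in controls, so the groups overlapped, and its mean of 22.8 was just inside the limit. Its log2 fold change was 0.42 ± 0.31 (SE, limma adjusted p = 0.459), with a 95% interval of -0.26 to 1.10. Its mean signal was 27.3 ± 5.22 with DHT and 18.2 ± 13.3 in controls (SD, n = 3 each). The control means of both TRPM8 probe sets were thus below the limit. The 95% intervals of the 2 probe sets do not meet. On the log2 scale their gap averaged 1.34 ± 0.28 with DHT and -0.18 ± 0.76 in controls (SD, n = 3 each). The groups did not overlap, at an exact permutation p of 0.1, the smallest possible (0.25 after Benjamini-Hochberg adjustment over 5 pairs). With controls below the limit, the gap does not show whether the 2 changed differently. Averaging both gave 1.18 ± 0.21 (SE, limma adjusted p = 0.0065 over genes). That mean includes the brighter probe set, which passed the limit only through the DHT group, and the dim one did not pass the threshold alone. The mean is therefore no separate result, and it does not show that the 2 probe sets changed alike. Where in the transcript either probe set lies was not analysed here.

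The sequence before the most upstream RefSeq start of TRPM8 is shown because 1 of its 2 probe sets passed. Beside it is that of TRPM7, the other channel with an unadjusted p under 0.05. Each window holds 250 bases before the start and 50 from it, on GRCh38.p14, at chr2:233917123-233917422 on the plus strand for TRPM8 and chr15:50686748-50687047 on the minus strand for TRPM7. Capitals mark TATAAA, the core of the TATA box, searched on the sense strand. The androgen response half-site AGAACA was searched on both strands.
TRPM8: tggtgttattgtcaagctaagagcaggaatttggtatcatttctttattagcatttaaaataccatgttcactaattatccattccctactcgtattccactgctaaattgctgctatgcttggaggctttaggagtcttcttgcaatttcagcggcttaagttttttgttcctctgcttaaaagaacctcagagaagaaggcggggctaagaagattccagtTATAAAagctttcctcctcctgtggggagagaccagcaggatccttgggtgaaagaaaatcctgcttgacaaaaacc
TRPM7: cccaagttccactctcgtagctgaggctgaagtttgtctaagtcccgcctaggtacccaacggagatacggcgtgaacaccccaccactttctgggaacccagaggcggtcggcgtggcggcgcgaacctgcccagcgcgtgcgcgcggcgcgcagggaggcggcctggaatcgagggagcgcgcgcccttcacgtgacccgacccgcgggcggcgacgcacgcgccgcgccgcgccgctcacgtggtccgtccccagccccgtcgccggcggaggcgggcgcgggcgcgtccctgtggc

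The TRPM8 window holds TATAAA, beginning 27 bases before the start, a match that 7.33% of 35116 RefSeq windows of the same length share. It is 41% G and C, below the median of 58.7% over all windows, and holds 3 CpG pairs. The TRPM7 window holds no TATAAA, is 73.3% G and C and holds 48 CpG pairs. Neither window holds AGAACA on either strand, whereas 14.8% of all windows do. RefSeq lists 6 start windows for TRPM8, and 1 of these holds the half-site, 166 bases before the most downstream start. Among the other channels, 1 window each of TRPM2, TRPV6 and TRPC1 holds it. With those of TRPM8 included, there are 18 windows of 9 of the 10 genes. The full androgen response element, searched as the half-site followed by any 3 bases and then its reverse complement, is in 0 of these 18 and in 1 of the 35116. A match is a run of letters, and neither a match nor its absence bears on binding.

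The genes with the profile most like that of TRPM8 depended on the pseudocount. Likeness was the Euclidean distance between values of log2(signal + 16) over the 6 arrays, each centred on its own mean, among 13882 other genes, where the median distance was 2.45. With the pseudocount of 16 the nearest genes were PMEPA1 (0.19), KLK3 (0.32), ELOVL7 (0.51), GPR158 (0.56) and NEURL1B (0.63). PMEPA1 is known as an androgen-induced inhibitor of TGF-beta signalling, ELOVL7 is a fatty acid elongase, GPR158 an orphan receptor and NEURL1B a ubiquitin ligase. PMEPA1 had 735, 598 and 573 with DHT, against 182, 158 and 142 in controls, a log2 fold change of 1.88 ± 0.12 (SE). The distance itself picks genes with a change near that of TRPM8, so this size is no separate result. Of these 5 genes, 3 were among the nearest 5 with a pseudocount of 1 and 0 with one of 64, an alternative added after the data were seen. The control arrays of TRPM8 lay below the limit, so the likeness is a description at 1 setting.

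**Figure D2:**
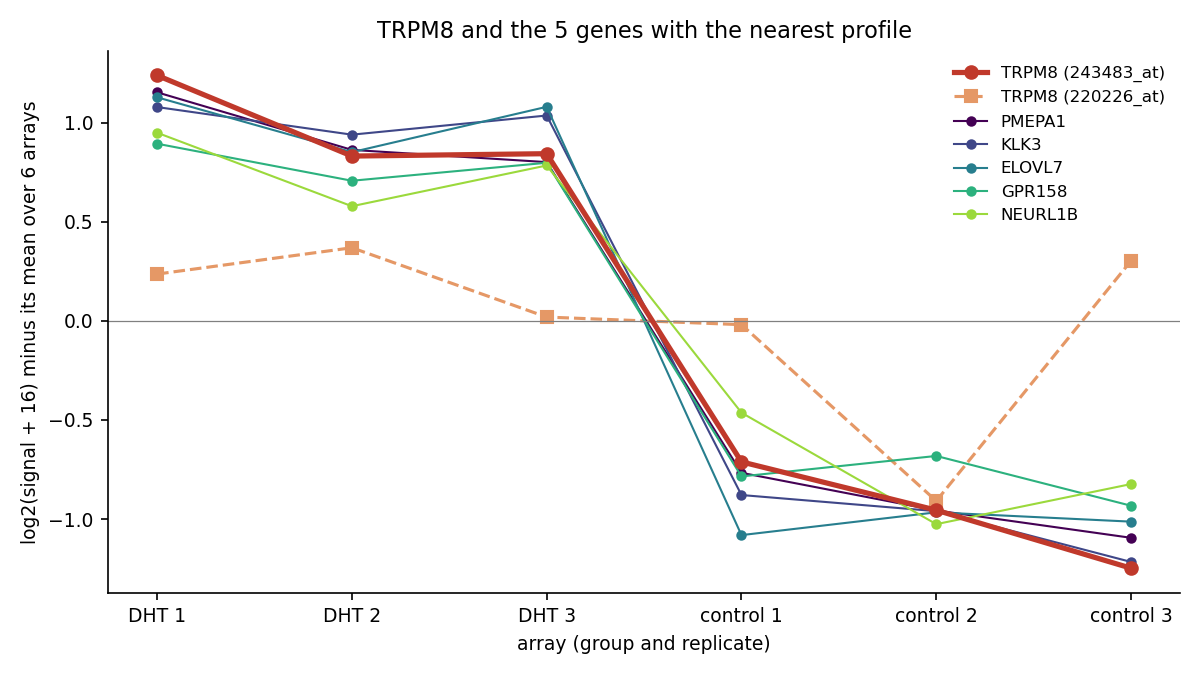
log2(signal + 16) minus its mean over 6 arrays, for the TRPM8 probe sets and the 5 genes nearest at a pseudocount of 16, with the 3 DHT arrays left of the 3 control arrays. Lines join values of 1 gene and imply no order of replicates. The dim TRPM8 probe set (dashed) overlaps between the groups, at 21.8 to 32.2 with DHT and 3.87 to 30.0 in controls before the log.

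TRPM7, the channel with a kinase domain, was read by 5 probe sets, whose estimates had different signs. The brightest (223324_s_at) had 169, 190 and 152 with DHT, against 119, 129 and 133 in controls, without overlap. Its log2 fold change was 0.38 ± 0.11 (SE; 95% interval 0.13 to 0.63), with a limma adjusted p of 0.053 over probe sets, short of the threshold, and it turned to -0.12 with arrays scaled to spiked-in transcripts. A probe set marked by its _x_at ending as prone to cross-hybridisation (223323_x_at) had 115, 64.9 and 102 with DHT, against 113, 162 and 158 in controls. The DHT mean was the lower one, with a slight overlap between the highest DHT and the lowest control array. Its log2 fold change was -0.56 ± 0.19 (SE; 95% interval -0.97 to -0.15; limma adjusted p = 0.084). The 2 intervals do not meet.

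The gap between these TRPM7 probe sets averaged 0.79 ± 0.49 on the log2 scale with DHT and -0.15 ± 0.19 in controls (SD, n = 3 each), without overlap. Its exact permutation p was 0.1, the smallest possible, and 0.25 after Benjamini-Hochberg adjustment over 5 pairs of probe sets of 1 gene. The dimmer 239484_at had 33.0, 52.7 and 27.4 with DHT, against 18.5, 5.47 and 33.4 in controls, and a DHT-minus-control difference of 0.67 ± 0.31 (SE, limma adjusted p = 0.215). The groups overlapped there. For 231689_at the signals were 27.2, 36.8 and 24.5 with DHT, against 27.6, 28.6 and 20.2 in controls, with a log2 fold change of 0.13 ± 0.22 (SE). The probe set below the limit (237884_x_at) had 12.98, 18.2 and 16.7 with DHT, against 19.99, 14.6 and 9.88 in controls. Read as a gene from its brightest probe set, TRPM7 passed as higher over the 13883 genes (limma adjusted p = 0.0462), where 13.5% of genes passed, 7.22% higher and 6.25% lower. That call was lost in 11 of 18 alternatives, among them averaging its probe sets (0.15, adjusted p = 0.481) and the removal of DHT replicate 1 or 2 or any control replicate (adjusted p = 0.0831 to 0.167).

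**Figure D3:**
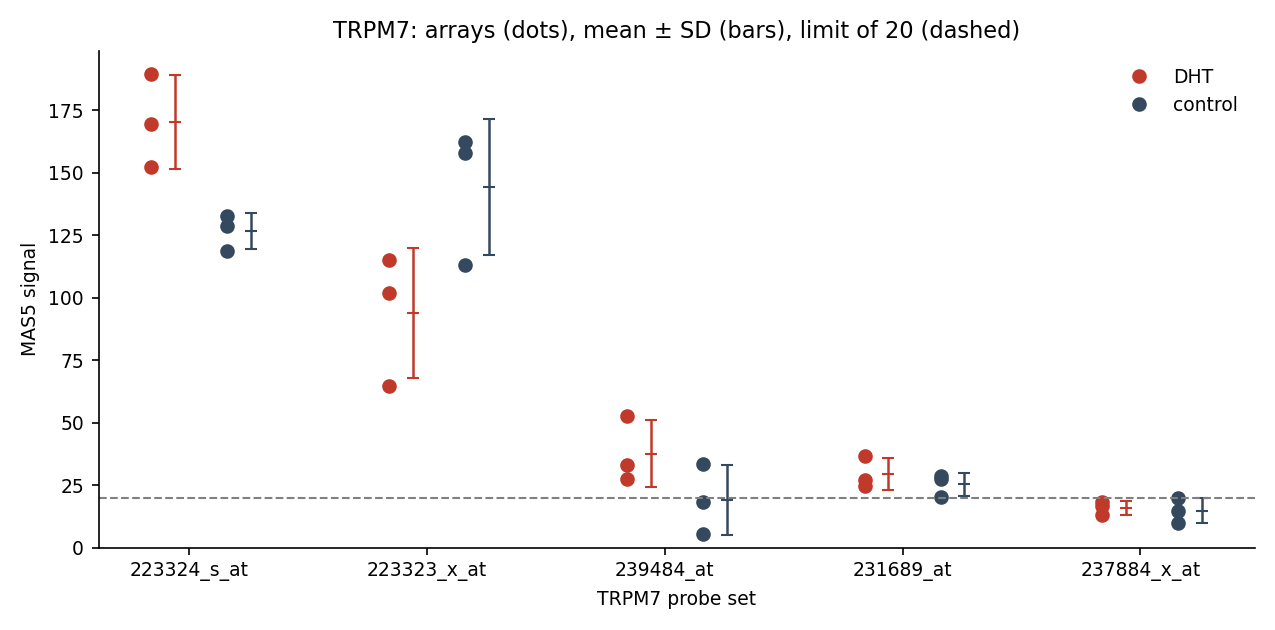
MAS5 signal of the 5 TRPM7 probe sets on each array (dots), with mean ± SD of 3 arrays (bars), DHT left of control, and a dashed line at the limit of 20. 223324_s_at is higher with DHT on all arrays (152 to 190 with DHT, 119 to 133 in controls), and 223323_x_at has the lower mean with DHT (94.0, against 144 in controls).

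TRPM4 and TRPM2 had bright probe sets and estimates close to 0. TRPM4, the sodium channel opened by calcium, had 396, 352 and 314 with DHT, against 368, 336 and 350 in controls. The groups interleaved, the log2 fold change was 0.01 ± 0.10 (SE, limma adjusted p = 0.983), and the 95% interval ran from 1.15-fold lower to 1.16-fold higher with DHT on the log2(signal + 16) scale. TRPM2, the ADP-ribose-gated channel, had 217, 175 and 177 with DHT, against 200, 199 and 170 in controls. Its groups overlapped as well, and its log2 fold change of -0.00 ± 0.11 (SE; adjusted p = 0.992) had an interval from 1.19-fold lower to 1.19-fold higher. The mean signal of TRPM4 was 354 ± 41.0 with DHT and 351.3 ± 15.8 in controls, and that of TRPM2 was 189.5 ± 23.8 with DHT and 189.6 ± 16.6 in controls (SD, n = 3 each).

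**Figure D4:**
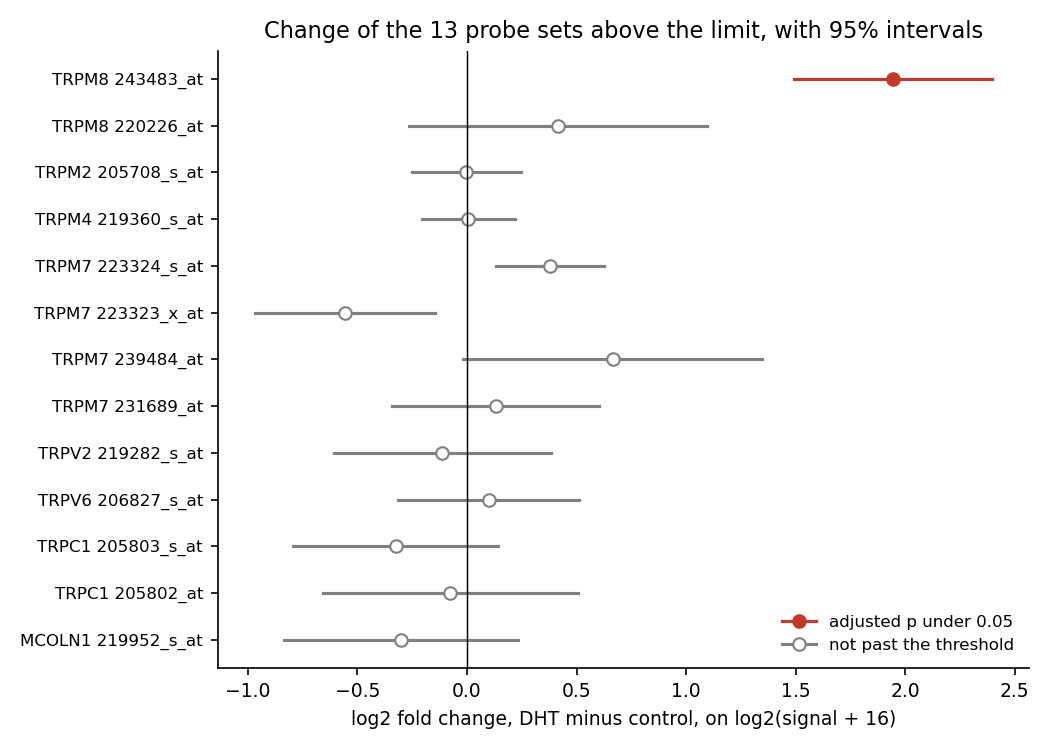
log2 fold change (DHT minus control, on log2(signal + 16)) of the 13 probe sets above the limit, with 95% limma intervals, filled red past an adjusted p of 0.05. TRPM8 243483_at, at 1.94, is the filled one. TRPM4, at 0.01, has the shortest interval, and the dim probe sets have the longest.

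The vanilloid channels gave no call. TRPV6, the calcium uptake channel, had 52.6, 56.5 and 34.8 with DHT, against 47.1, 43.8 and 38.5 in controls (206827_s_at), with the control values inside the range of the DHT values. Its log2 fold change was 0.10 ± 0.19 (SE, limma adjusted p = 0.806), and the interval reached 1.24-fold lower and 1.43-fold higher. TRPV2 had 23.5, 27.0 and 32.0 with DHT, against 30.2, 43.0 and 21.8 in controls (219282_s_at), again overlapping, with -0.11 ± 0.23 (SE; adjusted p = 0.816). Its interval ran from 1.52-fold lower to 1.30-fold higher. TRPV1 could not be read, since both of its probe sets also name SHPK.

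TRPC1, of the store-operated branch, did not pass in either probe set above the limit. The brighter probe set (205803_s_at) had 26.7, 20.6 and 22.6 with DHT, against 33.4, 25.8 and 41.4 in controls, and the highest DHT array just overlapped the lowest control array. Its log2 fold change was -0.33 ± 0.21 (SE, limma adjusted p = 0.392). A second (205802_at) had 24.2, 20.7 and 18.7 with DHT, against 31.7, 11.3 and 30.0 in controls, with a log2 fold change of -0.08 ± 0.27 (SE). Another probe set (211602_s_at), below the limit at a mean of 15.6, had 20.1, 18.9 and 20.7 with DHT, against 4.80, 17.4 and 11.8 in controls.

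MCOLN1, the lysosomal calcium channel, had 62.3, 107 and 37.2 with DHT, against 82.9, 84.3 and 80.4 in controls. The control arrays lay within 2.38% of their mean as an SD, whereas the DHT arrays spread over 51.3% of theirs, on both sides of the controls. The log2 fold change of -0.30 ± 0.24 (SE) at a limma adjusted p of 0.499 was decided by single DHT arrays, at -0.61 (adjusted p = 0.0876) without DHT replicate 2 and -0.01 (adjusted p = 0.988) without DHT replicate 3. PKD2 had no single-gene probe set in the annotation and was not analysed here.

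The 4 probe sets below the limit were 1 each of TRPM7, TRPV2, TRPV6 and TRPC1, with means of 15.4, 9.68, 3.38 and 15.6. The nearest members to the limit were TRPC1 205802_at and TRPM8 220226_at, both at 22.8, on the inside and TRPC1 211602_s_at on the outside. TRPV2 222855_s_at had 13.6, 5.63 and 22.8 with DHT, against 5.21, 7.26 and 3.65 in controls, and TRPV6 1559405_a_at stayed between 1.66 and 5.68 on all arrays. No direction is read from values at these levels.

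The channels outside the set gave no call either. Of 17 other TRP genes, 6 were above the limit and 10 below it, and 1 had no single-gene probe set. None of the 6 passed over genes, with a median log2 fold change of 0.16, against 0.02 over all genes tested. TRPV3, another heat-gated vanilloid channel, had 45.4, 27.4 and 48.6 with DHT, against 16.1, 33.7 and 21.4 in controls, at 0.51 ± 0.24 (SE, limma adjusted p = 0.205), the widest shift of the 6. MCOLN2, a relative of MCOLN1, had 72.5, 69.8 and 75.7 with DHT, against 81.6, 53.5 and 48.4 in controls, at 0.22 ± 0.17 (SE; adjusted p = 0.457). At an unadjusted limma p under 0.05 there were 0 of the 6.

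Of 10 tested partners and ligand enzymes, 1 was higher and 1 lower, where 7.22% of all genes were higher and 6.25% lower. Their median log2 fold change was -0.05, and 5 had an unadjusted limma p under 0.05. Without the share of all genes under that unadjusted threshold, this count does not show an excess, nor do those of the lists below. TCAF1, a protein that binds TRPM8 and promotes its place at the cell surface, had 287, 286 and 298 with DHT, against 385, 411 and 462 in controls, a difference of -0.50 ± 0.09 in log2 (SE, limma adjusted p = 0.00384). Its groups stood well apart in that probe set, but its other probe sets had -0.33 (adjusted p = 0.0425 over probe sets), -0.24, -0.05 and 0.18, and their mean did not pass (-0.19, adjusted p = 0.128). NEDD4L, a ubiquitin ligase that removes channels from the plasma membrane, was higher, at 796, 838 and 854 with DHT, against 583, 549 and 499 in controls (0.60 ± 0.08, SE; limma adjusted p = 0.000705). A pair of further NEDD4L probe sets also passed as higher, at 0.62 and 0.96, and the other 3 did not pass. PKD1, polycystin-1, had -0.37 ± 0.11 (SE) and missed the threshold (adjusted p = 0.0548). The enzymes of ADP-ribose turnover that bear on TRPM2 did not pass, with PARP1 at -0.07, PARG at -0.02 and NUDT9 at 0.04.

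The store-operated machinery had no call over genes among its 8 tested genes, which are the store sensors STIM1 and STIM2, the pores ORAI1, ORAI2 and ORAI3 and the release channels ITPR1, ITPR2 and ITPR3. At an unadjusted limma p under 0.05 there were 0 of the 8, and their median log2 fold change was 0.04. STIM1 had 0.05 ± 0.12 and ORAI1 0.09 ± 0.12 (SE), and ORAI2 stood lowest at -0.48 ± 0.22 (SE, limma adjusted p = 0.193). All 6 ORAI2 probe sets above the limit had negative estimates, and 1 of them passed over probe sets (-0.61, adjusted p = 0.02). Among 8 tested calcium pumps and exchangers 1 was lower and none higher, where 6.25% of all genes were lower and 7.22% higher. Of the 8 pumps and exchangers, 4 had an unadjusted limma p under 0.05, and the median log2 fold change was -0.02. The lower one was ATP2B1, a pump that expels calcium across the plasma membrane, with 817, 836 and 931 with DHT, against 1024, 1183 and 1259 in controls (-0.41 ± 0.09, SE; adjusted p = 0.0115). Its other probe sets passed as lower too, at -0.67 and -0.60. ATP2C1, the calcium pump of the Golgi, did not pass from its brightest probe set, while 2 others passed in opposite directions over probe sets, at 0.44 (adjusted p = 0.0107) and -0.73 (adjusted p = 0.00258). ATP2A2, the pump that refills the endoplasmic reticulum, had 0.07 ± 0.07 (SE; adjusted p = 0.608). Among 11 tested genes of turnover of the lipid PIP2, which TRPM8 needs to open, the phospholipase PLCB4 was the 1 that passed, as lower, with 652, 708 and 657 with DHT, against 954, 899 and 858 in controls (-0.42 ± 0.08, SE; adjusted p = 0.00424), and its other probe set had -0.41. The median of the 11 was -0.18, and 3 had an unadjusted limma p under 0.05. Without the share of all genes under that threshold, the counts of 4 pumps and 3 PIP2 genes show no excess. A dimmer probe set of PIP5K1A, a kinase that makes PIP2, passed over probe sets as lower (-0.60, adjusted p = 0.0179), and the gene did not. The ATP2B1 and PLCB4 calls were lost when limma's variance had no trend with intensity (adjusted p = 0.0962 and 0.0619).

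**Figure D5:**
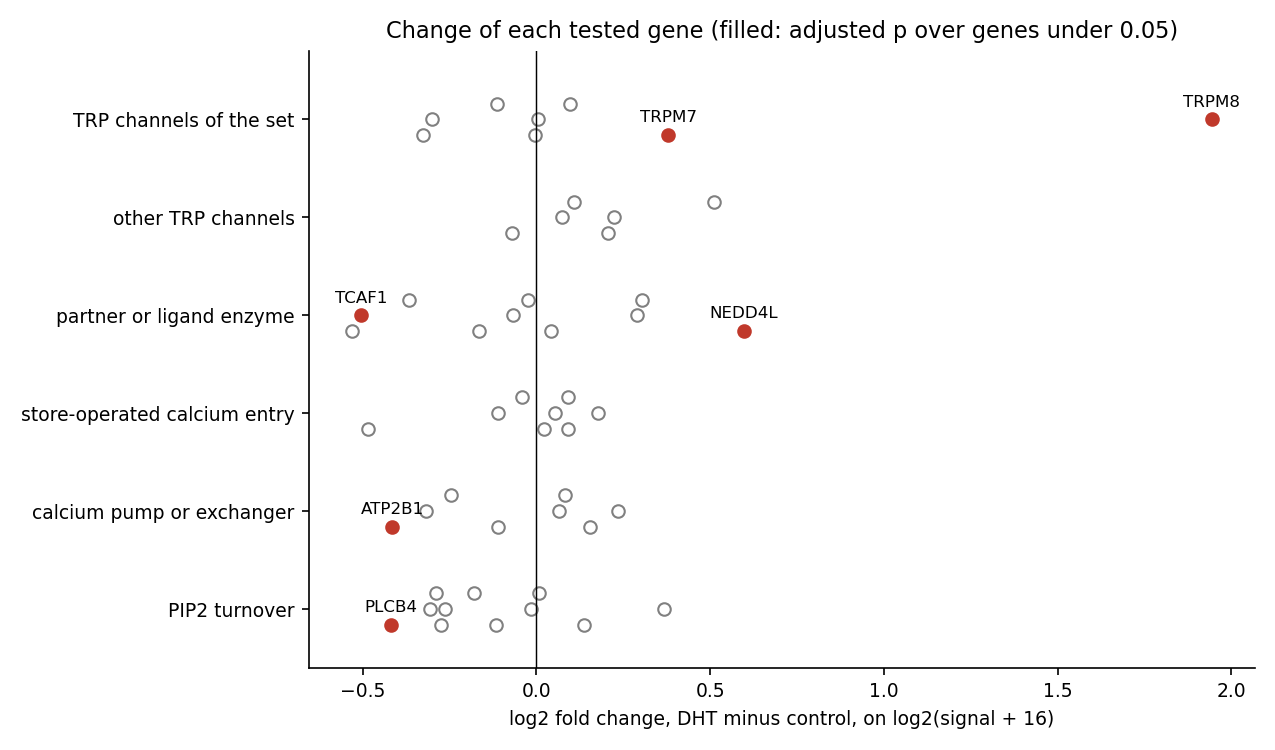
log2 fold change (DHT minus control, on log2(signal + 16)) of each tested TRP channel and of each tested gene of the partner, store-operated, pump and PIP2 lists, filled red where the limma adjusted p over genes was under 0.05. TRPM8 (1.94) lies farthest right of the genes plotted. NEDD4L (0.60) and TRPM7 (0.38) are on the higher side, and TCAF1 (-0.50), PLCB4 (-0.42) and ATP2B1 (-0.41) on the lower.

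These directions rest on the deposited scaling. The hybridisation spikes, bacterial transcripts added to every array, had a mean log2 signal of 10.1 ± 0.14 with DHT and 9.59 ± 0.11 in controls (SD, n = 3 each; exact permutation p = 0.1). With arrays scaled to the spikes instead, the median log2 fold change of all tested probe sets was -0.44. TRPM8 243483_at then had 1.59 and still passed, TRPM7 223324_s_at turned to -0.12, NEDD4L had 0.06, and 5 channel probe sets passed as lower, all between -1.04 and -0.51. Relative to that shift of the whole array, TRPM2 (-0.51) and TRPM4 (-0.52) were again near the middle of the array.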

How the data were processed

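Total RNA of 6 LNCaP samples was hybridised to 1-colour Affymetrix arrays. The authors deposited 1 table of linear signal intensities, which the submitters' processing notes credit to MAS5 with no version. No detection calls were used, and the number of arrays limits the precision. Samples were grouped by title. Genes came from the platform annotation, in which 41097 probe sets name 1 gene, 1801 several and 11777 none; 41043 were matched by gene identifier to the RefSeq table of GRCh38.p14. The 62 array controls were left out of tests.

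Signals were tested as log2(signal + 16) in limma 3.58.1 (R 4.3.3; lmFit, and eBayes with an intensity trend), DHT minus control, with Benjamini-Hochberg adjustment over the 31522 probe sets with a mean signal of at least 20, with 0.05 as the threshold. Each gene took the value of its brightest single-gene probe set, and from an _x_at probe set only where no other passed; gene p-values are adjusted over 13883 genes. Signals are given per array, and fold changes with limma's SE. The fit was also run on data simulated with its own variances, a check that cannot bear on the scaling or on the limit of 20. Exact permutation tests of single values were two-sided (Python 3.11.15). Promoter windows are from RefSeq (GRCh38.p14).

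Named are all channel probe sets, list genes that passed (at most 4 per direction), 4 androgen-response genes and the 5 genes nearest to TRPM8. PKD1, PARP1, PARG, NUDT9, TRPV3, MCOLN2, STIM1, ORAI1, ORAI2, ATP2C1, PIP5K1A, HOXB13, SLC45A3, KRT8, COL1A1 and ATP2A2 were named after their values were seen. Channels, lists and tests were chosen with earlier results of these data known. Alternatives were other pseudocounts (1 and 64), limits, scalings, variance models, a replicate block, probe set means and leaving out each array.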

Additional observations from a re-analysis of the deposited data

How the results depend on the processing

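TRPM8 243483_at kept its direction and its call in all 17 alternatives, at 1.04 to 2.85, and at 1.81 to 2.07 when single arrays were left out. It passed the limits of 20 and 50 only through the DHT group. With no limit on dim probe sets it had 1.94 (limma adjusted p = 0.00203). Of all probe sets, 1424 passed without the intensity trend and 15514 with spike scaling (2118 to 2712 without single arrays, the lowest without control replicate 3 and 2196 without DHT replicate 3), against 3456. Of genes, 721 passed without the trend, 1179 with equal array medians and 7597 with spike scaling (1204 to 1427 without single arrays), against 1870. The cause was not tested. With equal array medians 918 probe sets passed as higher and 1546 as lower, with spike scaling 257 and 15257, against 1705 and 1751 with the deposited scaling. Channel probe sets that passed numbered 2 with a limit of 50, where fewer probe sets were tested, and 2 with quantile normalisation, both higher; 2 with equal medians, 1 of them lower; and 6 with spike scaling, 5 of them lower. Same-numbered arrays did not deviate together (correlation of deviations from the group means -0.032 to -0.00076), so the numbers were not taken as pairs. The replicate block left the TRPM8 change at 1.94 (adjusted p = 0.000275), with 1 channel probe set called and 3222 probe sets overall; of the results named here it changed the call of TRPM7 as a gene (adjusted p = 0.064) and added 1 store-operated gene as lower.

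Among single probe sets and genes, changes of sign touched values near 0 or came with spike scaling. TRPM2 had 0.0097 with quantile normalisation (-0.10 to 0.048 without single arrays), TRPM4 had -0.056 with equal medians and -0.52 with spike scaling (-0.075 to 0.085 without single arrays), and spike scaling gave -0.12 for TRPM7 223324_s_at, also as a gene, -0.21 for TRPM7 231689_at and -0.30 for TRPV6. Without single arrays TRPV6 ran from -0.0011 to 0.26, TRPV2 from -0.27 to 0.053 and TRPC1 205802_at from -0.33 to 0.066. The contrast of TRPM8 243483_at and 220226_at kept its sign but ran from 0.88 to 1.94 over 8 alternatives, against 1.53. The contrast of TRPM7 223324_s_at and 239484_at was -0.77 with a pseudocount of 1, against -0.29. Without single arrays it ran from -0.54 to 0.040, so its sign was not stable. Comparisons of probe sets and control ratios without single arrays, and alternatives for single genes and list counts, were chosen after seeing the data. Signals near or below the limit of 20 limit what could be said of TRPM8 in controls and of TRPV2, TRPC1 and the dim probe sets of TRPM7 and TRPM8.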
